A study of Homo sapiens with 4 samples.

Results

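The aryl hydrocarbon receptor (AHR) and 6 genes tied to it were followed in U87, an established human glioma cell line. The genes were AHR, its partner ARNT, the repressor AHRR, and TIPARP, CYP1A1, CYP1B1 and ALDH1A3, treated here as target genes. They were chosen by name, with the values of the comparison described here already known, so the levels and differences of these 7 genes are given as a description, with no p-value of their own. Every probe set that the platform annotation assigned to exactly one of them was taken. This gave 16 probe sets for 7 genes, out of 37465 single-gene probe sets for 18304 genes. AHR, AHRR, TIPARP and CYP1A1 had 1 probe set each, ALDH1A3 had 2, CYP1B1 had 4 and ARNT had 6.

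All 4 samples were U87 cells in which QK, the RNA-binding protein gene also written QKI, was knocked down. Of these, 2 had also been transduced with miR-20a, a microRNA related to miR-17, and 2 with miR-NT, a microRNA of scrambled sequence without intended targets. Each sample was read on 1 array from 6 µg of total RNA. The labels do not say how the knockdown was made, whether the cells were a clone, or whether the 2 samples of each group were grown separately, so a p-value here reflects the spread among these arrays alone, which may be technical.

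AHR is a transcription factor of the bHLH-PAS family that waits in the cytosol with HSP90 and the co-chaperone PTGES3. On binding a ligand, such as a dioxin or the tryptophan product kynurenine, it enters the nucleus, pairs with ARNT and binds xenobiotic response elements, whose core reads GCGTG. CYP1A1, CYP1B1, AHRR and TIPARP are classical target genes, and the last 2 feed back on the receptor: AHRR competes with it for ARNT, and TIPARP is an ADP-ribosyltransferase that lowers its activity. In glioma, kynurenine made by the enzyme TDO2 is known as a ligand of the receptor.

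The supplied microRNA is shown because it is the agent that separates the groups. Its mature form is printed as RefSeq gives it (GRCh38.p14, chr13:91351072-91351094, plus strand), with the seed, bases 2 to 8, in capitals. In the same source, 8 mature microRNAs, among them miR-17-5p, miR-93-5p and miR-106b-5p, share this seed.
hsa-miR-20a-5p: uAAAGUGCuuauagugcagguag

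The stretches around the start sites of 4 of the genes are shown because the response element core can be looked for in them. The RefSeq windows (GRCh38.p14) run from 250 bases before a gene's start to 50 bases after it. Matches to GCGTG on either strand are in capitals, so a match on the opposite strand reads CACGC. The genes are AHRR (chr5:321464-321763, plus strand), TIPARP (chr3:156674340-156674639, plus strand), CYP1A1 (chr15:74725479-74725778, minus strand) and ALDH1A3 (chr15:100879581-100879880, plus strand).
AHRR: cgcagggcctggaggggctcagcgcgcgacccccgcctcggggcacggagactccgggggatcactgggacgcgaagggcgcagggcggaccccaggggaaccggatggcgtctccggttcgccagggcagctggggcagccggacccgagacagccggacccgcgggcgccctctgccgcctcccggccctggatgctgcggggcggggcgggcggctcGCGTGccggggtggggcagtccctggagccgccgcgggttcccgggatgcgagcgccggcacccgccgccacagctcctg
TIPARP: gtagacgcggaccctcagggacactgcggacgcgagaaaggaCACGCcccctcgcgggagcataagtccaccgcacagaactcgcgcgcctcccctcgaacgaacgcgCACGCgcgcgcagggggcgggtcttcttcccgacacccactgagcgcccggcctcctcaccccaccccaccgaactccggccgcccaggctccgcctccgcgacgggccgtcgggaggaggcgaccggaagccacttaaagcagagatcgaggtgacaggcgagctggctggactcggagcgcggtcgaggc
CYP1A1: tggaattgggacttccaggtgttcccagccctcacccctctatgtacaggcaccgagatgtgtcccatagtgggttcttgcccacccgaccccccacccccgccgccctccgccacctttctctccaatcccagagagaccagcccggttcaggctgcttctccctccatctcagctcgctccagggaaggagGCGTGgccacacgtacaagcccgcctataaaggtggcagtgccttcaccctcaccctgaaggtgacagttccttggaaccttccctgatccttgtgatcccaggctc
ALDH1A3: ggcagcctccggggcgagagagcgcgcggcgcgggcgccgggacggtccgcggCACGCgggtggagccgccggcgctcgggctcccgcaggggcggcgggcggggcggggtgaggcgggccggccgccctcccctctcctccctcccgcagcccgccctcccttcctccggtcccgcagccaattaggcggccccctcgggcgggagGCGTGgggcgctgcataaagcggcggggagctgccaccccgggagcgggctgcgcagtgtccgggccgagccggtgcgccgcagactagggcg

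The AHRR window held 1 match, 30 bases before the start site. The TIPARP window held 2 matches, 208 and 142 bases before the start, both on the opposite strand. The CYP1A1 window held 1 match, 57 bases before the start, and the ALDH1A3 window held 2, 197 and 43 bases before it. Windows were found for 6 of the 7 genes, 9 windows in all because AHRR and TIPARP have further start sites, and 6 of the 9 held the core. Of the windows not printed, that of AHR held 1 match, 37 bases after the start, and the other one of AHRR held 2. The ARNT window and the other TIPARP windows held none. The core occurred in 36.5% of all 35116 windows of 300 bases. The longer form TNGCGTG, which contains the core, was found in 1 of the 9 windows, that of AHRR printed above, and in 5.51% of all windows. These matches describe the letters in the windows and not binding.

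Levels are the deposited log2 probe-set values, and a difference is the miR-20a mean minus the miR-NT mean in log2 units, with its standard error (SE) from a limma fit across all 41920 probe sets. A probe set's level cannot be set against that of another, so the levels rank no genes. The cells were measured in bulk, so a change in all cells and a change in part of them cannot be told apart.

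The receptor itself differed little. AHR was at 9.62 and 9.79 log2 units in miR-NT cells and at 9.80 and 9.71 in miR-20a cells. The groups overlapped, and the difference of 0.05 ± 0.10 (SE, n = 2 each) lay within the spread between arrays. It turned to -0.05 after quantile normalization.

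ARNT, the partner that AHR shares with the hypoxia-inducible factors, likewise showed no common direction over its 6 probe sets. On 218222_x_at, its probe set with the highest mean, the miR-NT arrays read 7.99 and 7.97 and the miR-20a arrays 8.0 and 7.86, a difference of -0.05 ± 0.09 (SE). The other 5 lay between -0.19 and 0.16. Groups overlapped on 4 of the 6 probe sets. On 210828_s_at both miR-20a arrays were higher (6.64 and 6.57 against 6.50 and 6.39), and on 231016_s_at both were lower (5.79 and 5.70 against 5.93 and 5.95). Over all probe sets, both miR-20a arrays were above both miR-NT arrays for 21.7% and below them for 27.2%, so neither is read as a change.

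The feedback genes of the pathway were higher in miR-20a cells. TIPARP was at 9.58 and 9.54 log2 units in miR-NT cells and at 10.72 and 10.63 in miR-20a cells. Its 2 groups were separated by 1.06 units, and the mean difference was 1.12 ± 0.09 (SE, n = 2 each), or 2.17-fold. This difference ranked at place 20 from the top among all 41920 probe sets.

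AHRR, the repressor, was at 8.58 and 8.45 in miR-NT cells and at 9.52 and 9.34 in miR-20a cells. Both miR-20a arrays lay at least 0.77 units above both miR-NT arrays. The difference was 0.92 ± 0.10 (SE), or 1.89-fold.

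The monooxygenase genes differed from each other. CYP1B1, which encodes a cytochrome P450 that oxidizes oestrogens and polycyclic aromatic hydrocarbons, was higher on all 4 of its probe sets. On 202436_s_at the miR-NT arrays read 11.70 and 11.66 and the miR-20a arrays 12.74 and 12.55. On 202437_s_at they read 11.02 and 11.16 against 12.23 and 12.12. On 202435_s_at both miR-NT arrays read 11.42, against 12.50 and 12.38. The probe set with the smallest difference, 202434_s_at, read 9.36 on both miR-NT arrays, against 10.18 and 10.23. The groups were thus apart on each of the 4, and the differences were 0.97 ± 0.10, 1.08 ± 0.10, 1.02 ± 0.09 and 0.84 ± 0.09 (SE), or 1.79-fold to 2.12-fold. The probe sets share the same RNA and are not independent replicates.

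CYP1A1, the cytochrome P450 gene most used as a readout of AHR activity, read 6.29 in both miR-NT samples, against 6.49 and 6.41 with miR-20a. The groups did not overlap, but the difference was small, 0.16 ± 0.09 (SE), or 1.12-fold. The values carry no detection calls, so it cannot be told whether the transcript was measured above background.

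ALDH1A3, an enzyme that makes retinoic acid from retinal and is known from mesenchymal glioma cells, was higher on 1 of its 2 probe sets. On 203180_at it was at 10.23 and 10.06 in miR-NT cells and at 11.31 and 11.13 in miR-20a cells. This difference was 1.07 ± 0.11 (SE), or 2.10-fold, with 0.90 units between the groups. On 1558649_at, which is annotated to another transcript record, the arrays read 6.17 and 6.08 against 6.05 and 6.27, so the groups overlapped and the difference was 0.04 ± 0.11.

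**Figure D1:**
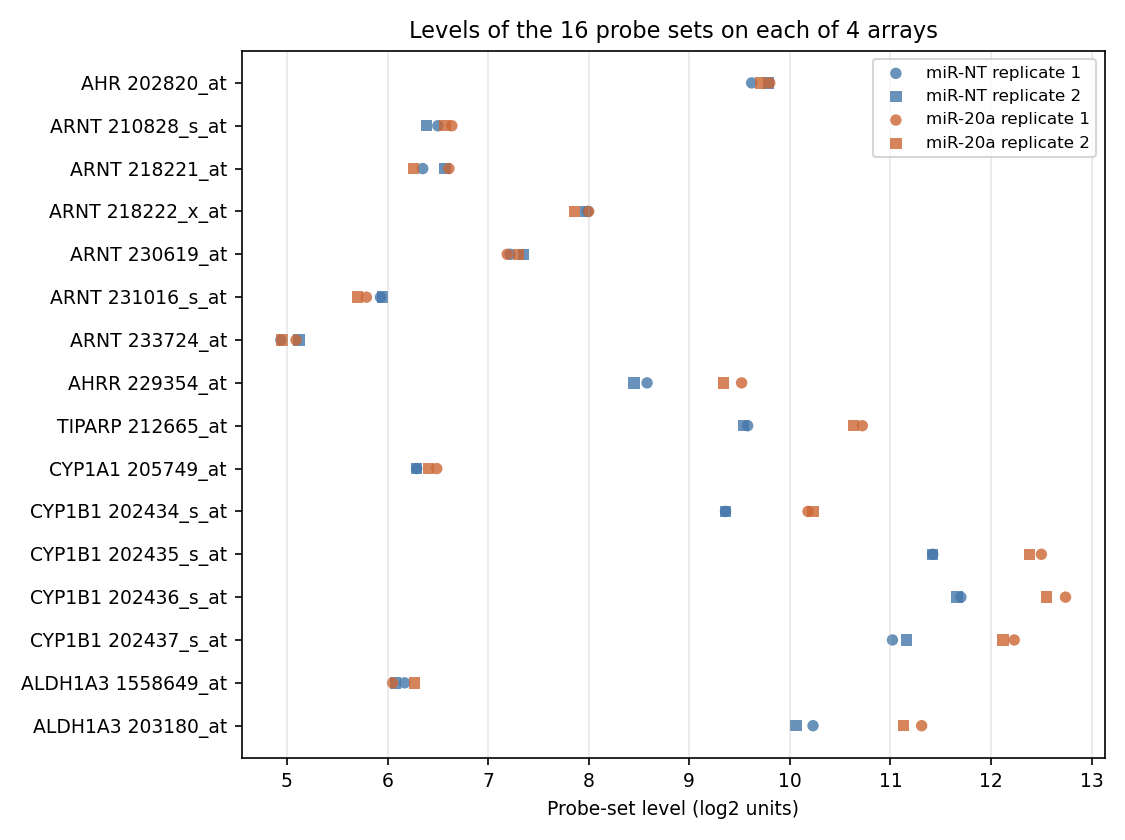
Level in log2 units (x axis) of each of the 16 probe sets (y axis) on the 4 arrays, miR-NT in blue and miR-20a in orange, with circles for replicate 1 and squares for replicate 2. The orange points of TIPARP, AHRR, CYP1B1 and the second ALDH1A3 probe set lie apart from the blue ones, with gaps of 0.77 to 1.06 units, while those of AHR overlap.

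The 16 probe sets thus fell into 2 ranges that left a gap between them. The 7 probe sets of AHRR, TIPARP, CYP1B1 and 203180_at of ALDH1A3 had differences of 0.84 to 1.12, and the other 9 had differences of -0.19 to 0.16. Among the 7, the 2 miR-NT arrays were at most 0.17 units apart and the 2 miR-20a arrays at most 0.19. On 6 of these 7 probe sets miR-20a replicate 1 read higher than replicate 2, the exception being 202434_s_at of CYP1B1.

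**Figure D2:**
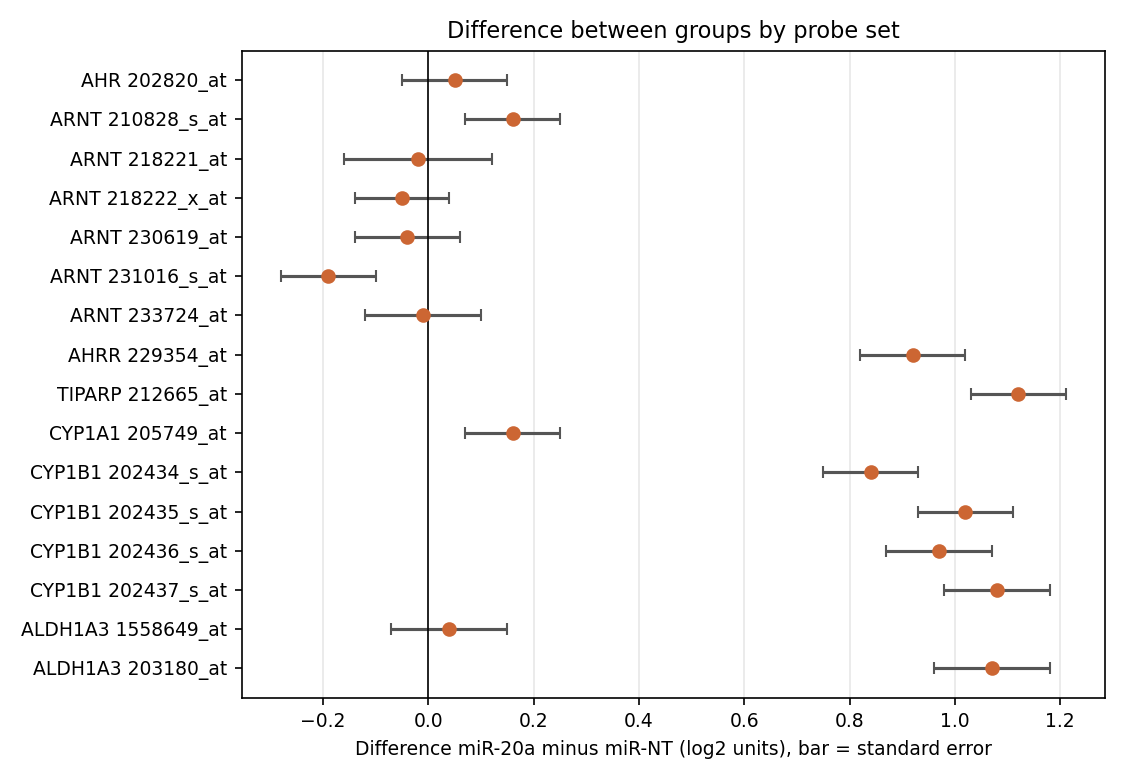
Difference between the miR-20a and miR-NT means in log2 units (x axis) for each probe set (y axis), with bars of 1 standard error from the limma fit. The points form a group from 0.84 to 1.12 and a group from -0.19 to 0.16.

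Over all 16 probe sets, the mean of 11 was higher with miR-20a and that of 5 was lower, with a median difference of 0.16, beside -0.02 over all probe sets. Both miR-20a arrays were above both miR-NT arrays for 9 of the 16, and below them for 1. Such separation was common on these arrays, at 21.7% of all probe sets above and 27.2% below. Past an adjusted p of 0.05 in the limma fit were 6 of the 16, those of TIPARP, the 4 of CYP1B1 and 203180_at of ALDH1A3, all higher, where 0.119% of all probe sets were called higher and 0.0167% lower. AHRR lay outside that threshold in this fit. It passed after quantile normalization and after median centring, and did not pass with the replicate number as a block. As the genes were chosen with this contrast known, these calls only describe where they fall in the fit across all probe sets, and nothing is read from them. The calls depended on single arrays, and all were lost without either miR-NT replicate and without miR-20a replicate 1. Without miR-20a replicate 2 the called set was not the same, with AHRR at 1.01 and 202434_s_at of CYP1B1 at 0.82. Of the 7 large differences the lowest value in any setting was 0.73, for 202434_s_at of CYP1B1 after quantile normalization. The blocks, the filter, the trend and robust fit and the other threshold leave these differences as they are by construction.

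Across probe sets, the difference varied with the mean level. Among the 6090 probe sets with a mean level of at least 8.97, the lowest among the 7 probe sets with large differences, the median difference was 0.11, 4.68% were higher with miR-20a by more than 0.5, and 48 probe sets were lower by more than 0.5. Among the 35830 dimmer ones the median was -0.04 and 0.985% were higher by more than 0.5. Every ARNT probe set, CYP1A1 and 1558649_at of ALDH1A3 were among the dimmer ones, and AHR among the brighter. Apart from AHR, the probe sets with small differences were thus all dimmer than those with large ones. The part of level in the differences was not tested.

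**Figure D3:**
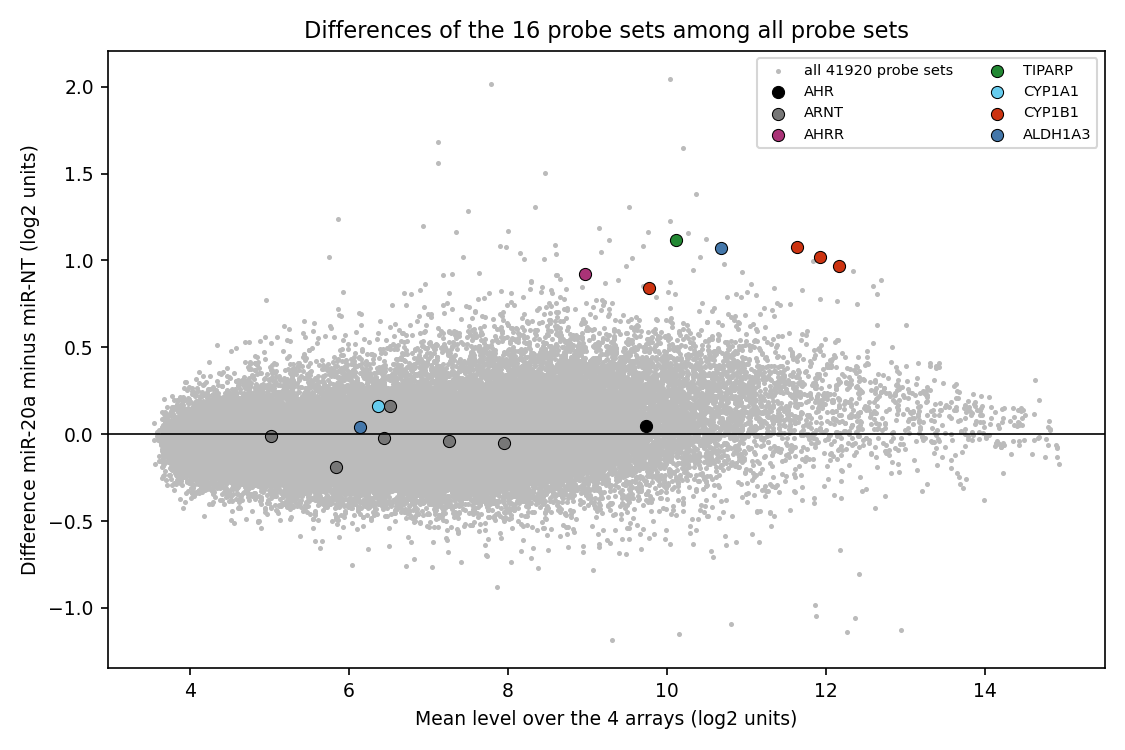
Difference between groups (y axis, log2 units) against mean level over the 4 arrays (x axis, log2 units) for all 41920 probe sets in grey and the 16 probe sets of the 7 genes in colour. TIPARP, AHRR, CYP1B1 and 203180_at of ALDH1A3 lie at differences of 0.84 to 1.12, and AHR at 0.05.

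Signs of RNA quality also moved with the groups. For the ACTB control, the 3′ probe set exceeded the 5′ one by 0.20 and 0.35 log2 units with miR-NT, against 0.52 and 0.46 with miR-20a. For GAPDH the excess was 0.22 in both miR-NT samples, against 0.27 and 0.28. Both controls were thus higher on both miR-20a arrays, and their part in the differences above was not tested. All 4 arrays had medians between 6.969 and 7.009 and correlated at 0.9907 to 0.9961. No array without the QK knockdown was analysed here, so the knockdown itself could not be checked.

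Other genes of the pathway were taken from 6 lists compiled from general knowledge with earlier results in view, each gene at its probe set with the highest mean. Of 85 listed genes 79 were measured, and 1 passed an adjusted p of 0.05, STC2. Over all 18304 genes at such probe sets 0.153% were called higher and 0.0109% lower in the same fit. With no adjustment, 7 of the 79 were higher and 7 lower at p under 0.05, where over all genes the shares were 11.8% and 8.33%. The median difference of the 79 was -0.01, the same as over all genes.

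Among 20 measured further target genes of the receptor, 1 was called higher and 0 lower (limma, 3 higher, 1 lower at unadjusted p under 0.05). The mean of 12 was higher and that of 8 lower, with a median difference of 0.03. STC2, a secreted glycoprotein hormone, was at 9.78 and 9.56 in miR-NT cells and at 11.11 and 11.01 in miR-20a cells. It rose by 1.38 ± 0.11 (SE, limma adjusted p = 0.0243), and its other probe set differed by 1.02. Its rise was known when the list was compiled, so it is no independent evidence. The call was lost without miR-NT replicate 1 (limma adjusted p = 0.328) and without miR-NT replicate 2 (0.304).

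NFE2L2, the antioxidant transcription factor NRF2, was at 10.13 and 10.44 against 10.90 and 10.79, a difference of 0.56 ± 0.12 that did not pass (limma adjusted p = 0.138). Its other 2 probe sets were at 0.01 and -0.15. NQO1, a quinone reductase induced by both AHR and NRF2, was at 11.92 and 11.95 against 12.35 and 12.30, a difference of 0.39 ± 0.09 (limma adjusted p = 0.14), with its other 2 probe sets at 0.26 and 0.51. Both genes passed in a robust fit that lets the variance follow the level (limma adjusted p = 0.0435 and 0.0282). That fit called 957 of all 41920 probe sets, against 57 in the main fit, and in no other setting did either gene pass. CYP1A2, the neighbour and close relative of CYP1A1, also named after its values were seen, was at 7.92 and 7.89 against 7.89 and 7.87. FOXQ1, a forkhead transcription factor named here after its values were seen, had a difference of -0.30 ± 0.09 (limma adjusted p = 0.188).

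No member of the cytosolic complex or of the co-regulator list passed (limma, 11 of 14 measured, 0 higher, 1 lower at unadjusted p under 0.05). PTGES3, the HSP90 co-chaperone p23, had a difference of 0.23 ± 0.10 (limma adjusted p = 0.282). HSP90AA1, the inducible HSP90, had 0.15 ± 0.09 (limma adjusted p = 0.429), and all 4 of its probe sets were of that sign. SRC, a tyrosine kinase found with the cytosolic receptor, had -0.30 ± 0.11 (limma adjusted p = 0.222), a sign shared by 4 of its 7 probe sets.

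The 13 further bHLH-PAS genes, which include other partners of ARNT, had a median difference of -0.09, and 0 of them passed (limma, 1 higher, 3 lower at unadjusted p under 0.05). HIF1A, the oxygen-regulated partner of ARNT, was at 12.31 and 12.49 against 12.75 and 12.65, a difference of 0.30 ± 0.10 (limma adjusted p = 0.217). EPAS1, which encodes HIF-2 alpha, was at 11.46 and 11.35 against 11.10 and 11.06, a difference of -0.33 ± 0.09 (limma adjusted p = 0.172). Its other 2 probe sets were at -0.71 and -0.09. HIF3A had -0.31 ± 0.09 (limma adjusted p = 0.171). Its other probe sets lay between -0.14 and 0.21, and their groups overlapped. At their highest-mean probe sets, the groups did not overlap for any of these 3 genes. These 3 had the smallest p of the list. Separation was common, since of all 18304 genes at such probe sets 4659 had both miR-20a arrays above and 4943 had them below.

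Of 11 tryptophan and kynurenine enzymes, which make and consume the ligand kynurenine, 0 passed (limma, 0 higher, 1 lower at unadjusted p under 0.05), and 9 had a lower mean in miR-20a cells. KYNU, the kynureninase that breaks kynurenine down, was at 10.60 and 10.67 against 10.38 and 10.34, a difference of -0.28 ± 0.09 (limma adjusted p = 0.201). Of its other 3 probe sets, 2 were at -0.40 and -0.46 and the third was near 0. IL4I1, an amino acid oxidase that makes other AHR ligands from tryptophan, had -0.19 ± 0.09 and KYAT1, a kynurenine aminotransferase, -0.21 ± 0.09 (limma adjusted p = 0.302 and 0.315). The other probe sets of KYAT1 were at -0.01 and 0.20. TDO2, which opens the tryptophan ring and was named after its values were seen, was at 10.70 and 10.92 against 11.03 and 11.01, a difference of 0.21 ± 0.11 (limma adjusted p = 0.342).

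Around ALDH1A3, 14 of 16 genes of retinoic acid synthesis and response were measured and 0 passed (limma, 1 higher, 1 lower at unadjusted p under 0.05). DHRS3, a retinal reductase induced by retinoic acid, had a difference of 0.29 ± 0.10 (limma adjusted p = 0.207). STRA6, a receptor for retinol-binding protein, had -0.30 ± 0.09 and RARG, a retinoic acid receptor, -0.24 ± 0.10 (limma adjusted p = 0.187 and 0.293). The other probe sets of RARG were at -0.24 and 0.28. The other retinal dehydrogenases, ALDH1A1 and ALDH1A2, named after their values were seen, had differences of -0.09 and -0.13. RARA, another retinoic acid receptor named in the same way, was at 9.69 and 10.16 against 11.04 and 9.90, so its groups overlapped, and only 1 of its 5 probe sets had a higher mean. Around TIPARP, 0 of 10 other mono-ADP-ribosylating PARP enzymes passed (limma, 2 higher, 0 lower at unadjusted p under 0.05), with PARP8 at 0.29 ± 0.11, PARP11 at 0.26 ± 0.10 and PARP9 at 0.20 ± 0.09 (limma adjusted p = 0.26, 0.264 and 0.294).

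**Figure D4:**
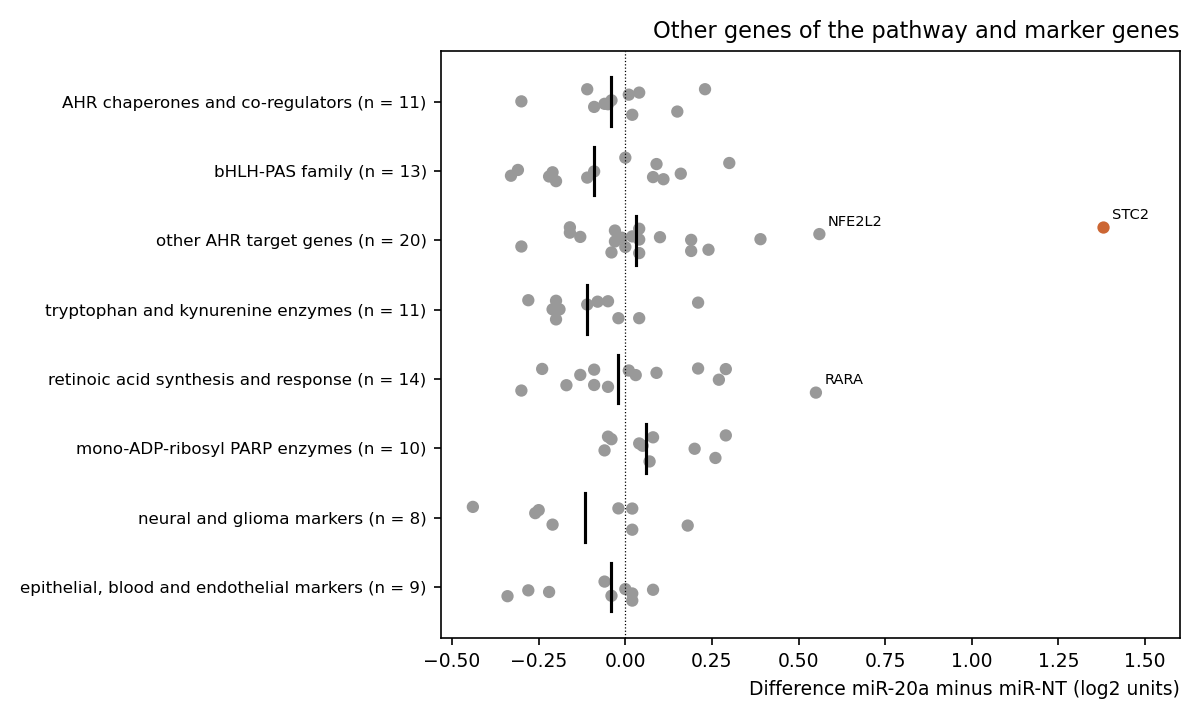
Difference between groups in log2 units (x axis) for the measured genes of 6 pathway lists and 2 marker lists (y axis), 1 point per gene, with a bar at each list's median. STC2, in orange, at 1.38, is the one gene past the threshold, and genes with differences beyond 0.5 are named.

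The genes whose profile over the 4 arrays was closest to that of TIPARP, by Euclidean distance of gene-centred log2 levels among 18304 genes, were ADAM10, a membrane protease, LRRC15 and the kinase SGK1, at distances of 0.07, 0.09 and 0.11. They differed by 1.08, 1.19 and 1.16. The nearest to ARNT, the gene with the lowest difference at its highest-mean probe set, were GSX2, SHROOM1 and HS1BP3 at 0.01 to 0.02, none of which differed by more than 0.06. With 4 arrays many genes lie close to any profile.

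Markers of cell identity gave no call. VIM, an intermediate filament of glioma cells, was at 14.70 and 14.66 against 14.68 and 14.63, and CD44, a mesenchymal surface receptor, at 12.48 and 12.43 against 12.71 and 12.57, a sign shared by 4 of its 13 probe sets. Of 8 neural and glioma markers 0 passed (limma, 0 higher, 2 lower at unadjusted p under 0.05), with SOX9 at -0.44 (-0.66 on its other probe set) and FABP7 at -0.26. The other 2 probe sets of FABP7 were at 0.22 and -0.12. The log2 levels of the 8 summed to 68.45 and 68.32 with miR-NT and to 67.71 and 67.13 with miR-20a, so both miR-20a arrays were lower, and the part of this in the differences of the 7 genes was not tested. Of 9 epithelial, blood and endothelial markers 0 passed (limma, 0 higher, 2 lower at unadjusted p under 0.05), with differences from -0.34 for ERG to 0.08 for PTPRC. The other 3 probe sets of ERG were at 0.31, -0.12 and -0.04, without a common direction. The log2 levels of these 9 markers summed to 57.96 and 57.46 with miR-NT, against 56.42 and 57.34 with miR-20a. Both miR-20a arrays were thus lower for this list too. Without detection calls, the absence of GFAP, at 6.94 to 7.33, or of any other marker cannot be told from these values.

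**Figure D5:**
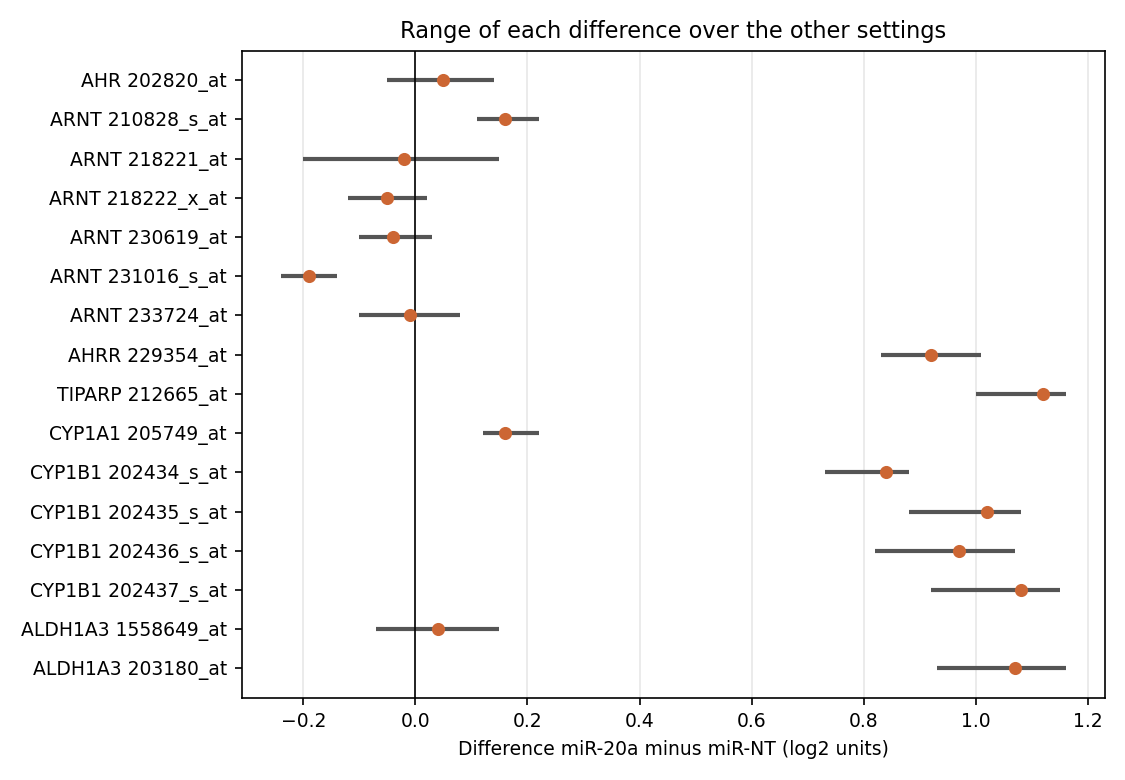
Range of each probe set's difference (x axis, log2 units) over the other settings (grey bar), with the reported value as a point, by probe set (y axis). The bars of AHRR, TIPARP, CYP1B1 and 203180_at of ALDH1A3 lie between 0.73 and 1.16, while that of AHR spans -0.05 to 0.14.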

How the data were processed

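The values are log2 probe-set levels from 4 single-colour arrays, 1 column per sample, as deposited by the authors. The package affy is named in the submitters' processing notes. How background, scaling and probe summaries were handled, and with which version, is not given in the sources used here. Base 2 was read from the values, whose highest was 15.07. The labels' protocols give biotinylated cRNA made from 6 µg of total RNA. Of 41930 probe sets, 10 array controls were left out of the fit, and 1 control of RNA quality is not reported here.

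Gene names came from GEO's annotation of the platform. Checked by Entrez identifier against RefSeq (GRCh38.p14), 0 symbols changed. Of the 41920 probe sets 37465 named 1 gene, 1727 several and 2728 none. The 7 genes were matched on all single-gene probe sets. No probe set of several genes named one of them.

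The miR-20a and miR-NT arrays were compared with limma 3.58.1 under R 4.3.3 (functions lmFit and eBayes, with group as the term), with two-sided p-values adjusted over all 41920 probe sets by the Benjamini-Hochberg method at 0.05. The fit was tested on simulated data. An exact permutation test of 2 arrays against 2 cannot go below 0.333. Precision is limited by the number of arrays. The deposited normalization was kept and low values were not filtered. The members and lists were chosen with earlier results of these data known, and no set test was run. A list gene was represented by its probe set of highest mean. Named from each list were the called genes and, up to 3 in all, those with the smallest p, while any gene of the 2 marker lists could be named. CYP1A2, FOXQ1, TDO2, ALDH1A1, ALDH1A2 and RARA fell outside this rule and were named after their values were seen. Of 102 listed genes, 96 were measured. Sequences are RefSeq's, GRCh38.p14, read by gene symbol or microRNA name. The settings varied were quantile normalization, a block for the replicate number, centring on the median, leaving out probe sets below the 40th percentile, a trend and robust fit, 1 probe set per gene, a threshold of 0.10 and leaving out each array. Cyclic loess and a crossed pairing were added after seeing the data.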

Additional observations from a re-analysis of the deposited data

Results flagged for a closer look

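Control probe sets, which enter no comparison, read higher at the 3′ than at the 5′ end by more in miR-20a cells. The mean 3′ minus 5′ difference was 0.486 log2 units for ACTB against 0.272 in miR-NT cells, and 0.275 for GAPDH against 0.222. For both of these controls both miR-20a arrays lay above both miR-NT arrays. Whether this moved with the differences of the receptor's target genes beyond sharing the groups was not tested.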

How the results depend on the processing

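Of all probe sets 57 were called, 50 higher and 7 lower in miR-20a cells. This count became 334 when the dimmest 40% were left out, 957 with a trend and robust fit and 159 at a threshold of 0.10. It lay between 0 and 66 when an array was left out. Of the 16 probe sets of the 7 genes 6 were called, and between 0 and 6 when an array was left out. Of the pathway genes 1 was called, 3 with a trend and robust fit (STC2, NFE2L2 and NQO1) and between 0 and 1 when an array was left out. Where an array is left out, the lone sample of its group is assumed to vary like the other group. With the replicate number as a block 0 probe sets were called, 0 of the 16 and 0 pathway genes (limma, 5754 probe sets at an unadjusted p under 0.05), and the fit kept 1 residual degree of freedom. Deviations of same-numbered samples correlated at -0.12. With so few arrays per group this correlation cannot decide whether the numbers pair the samples, so any pairing is unknown. A crossed pairing, added after seeing the data, called 0 probe sets and 0 of the 16. The cause of these losses was not tested.

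Of the 7 genes' differences, 10 values moved by more than the spread between arrays, all after quantile normalization or cyclic loess, for example from 1.12 to 1.0 for TIPARP and from 0.05 to -0.05 for AHR. The blocks, the trend and robust fit, the filter and the threshold cannot move a difference, and leaving out 1 of 2 arrays cannot move it beyond that spread. Depth of signal over background is unknown here, which limits what can be said of CYP1A1.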

Other observations

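The nearest measured gene on either side of each of the 7 genes was looked up after the data were seen, in RefSeq's order on GRCh38.p14. Of these 14 neighbours 0 passed the threshold (limma, 4 at an unadjusted p under 0.05). Their differences lay between -0.40 and 0.30 log2 units. Among all 18304 genes, each at its highest-mean probe set, the called shares were 0.153% (higher) and 0.0109% (lower). Before adjustment, the shares of all genes with a limma p below 0.05 were 11.8% (higher) and 8.33% (lower). With so few neighbours, neither count sets them apart from all genes. TIPARP-AS1, which lies beside TIPARP, read 4.54 and 4.46 with miR-NT, against 4.54 and 4.47 with miR-20a. CYP1B1-AS1 read 4.75 and 4.53 against 4.91 and 4.85. PDCD6, next to AHRR, was at 9.73 and 9.68 against 9.94 and 10.07, a difference of 0.30 ± 0.09 (SE, limma adjusted p = 0.197), and EXOC3-AS1, on the other side of AHRR, at 5.95 and 6.44 against 5.80 and 5.79. LRRK1, next to ALDH1A3, differed by -0.27 and EDC3, next to CYP1A1, by -0.20. TIPARP-AS1 and CYP1B1-AS1 lay at the 8.39th and 11.67th percentile of mean level, and without detection calls it cannot be told whether they were measured above background.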
